A study of Ovis aries with 16 samples.

Results

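The results concern 4 rows of a table of reads assigned to long non-coding RNAs (lncRNAs) in sheep small RNA libraries: LOC114110111, LOC106990385, LOC101116687 and LOC105616344. These 4 of 2973 lncRNA rows were selected on their measured reads, which had been seen to be high in liver, so the difference between liver and muscle is described without a test. The design asks whether non-coding RNAs of the 2 tissues are altered in females that met excess testosterone in the womb. Small RNA libraries were made from the liver and the muscle of 8 ewes, with 4 control ewes (98, 131, 132 and 201) and 4 ewes treated prenatally with testosterone, called prenatal T (48, 185, 233 and 255). This gave 16 libraries in 4 groups of 4, and each ewe gave 1 liver and 1 muscle library. The labels give no breed, age, dose or time of treatment.

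Long non-coding RNAs are transcripts that encode no protein, and many of them carry small nucleolar RNAs (snoRNAs) or microRNAs (miRNAs) inside their bounds. SnoRNAs guide chemical modification of ribosomal RNA, and miRNAs silence messenger RNAs in the cytoplasm. A small RNA kit captures short molecules, so a read assigned to a lncRNA in such a library is a short RNA or fragment that maps within the annotated bounds of that gene. In tissue libraries, fewer cells of a type and less RNA per cell cannot be told apart.

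The deposited values are scaled separately in each tissue. Reads were therefore recovered and scaled jointly over the 16 libraries by median-of-ratios factors from 105 lncRNAs, and levels below are such jointly scaled reads unless stated. They compare a gene between libraries, and no level is given per length. Reads assigned to lncRNAs numbered 38399 to 124174 per liver library and 122749 to 926854 per muscle library, and intervals around single counts would cover counting error only. In addition, the library names in the labels carry a number in one of 2 separate ranges, a lower one of 49 to 63 and a higher one above 63, and what the ranges stand for is not stated there. The livers of ewes 131, 132, 201, 185, 233 and 255 and the muscle of ewe 255 are in the higher range, while the livers of ewes 98 and 48 and the other 7 muscles are in the lower range. Ewes 98, 48 and 255 therefore have both of their libraries in the same range.

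LOC114110111 had the most reads of the 4 in each liver and was high there in every ewe. In control livers its level was 11556 in ewe 98, 30447 in ewe 131, 21585 in ewe 132 and 21779 in ewe 201. In prenatal T livers it was 31269 in ewe 48, 27435 in ewe 185, 23861 in ewe 233 and 22516 in ewe 255. The liver of ewe 98 stood apart below the other 7, and the highest and the lowest liver were both in the lower number range.

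In control muscle LOC114110111 was at 128, 246, 191 and 125 in ewes 98, 131, 132 and 201. In prenatal T muscle it was at 112.7, 139, 156 and 134 in ewes 48, 185, 233 and 255. Liver and muscle did not overlap, and the muscle of ewe 255 lay among the other muscles. By group mean the order was prenatal T liver (26270 ± 3926, SD, n = 4), control liver (21342 ± 7723), control muscle (172 ± 57.9) and prenatal T muscle (135 ± 17.8). Within a tissue the 2 groups overlapped. The reads behind these levels numbered 13990 to 52624 per liver and 55 to 277 per muscle. LOC114110111 took 34.3% ± 5.54 of all lncRNA reads in control liver and 37.8% ± 3.29 in prenatal T liver (SD, n = 4 each), against 0.0413% ± 0.0167 and 0.0317% ± 0.00908 in control and prenatal T muscle.

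LOC106990385 had the next most reads in each liver, and its level followed the library number range within both tissues. In control livers it was at 183 in ewe 98 and at 3696, 2519 and 2721 in ewes 131, 132 and 201. In prenatal T livers it was at 71.3 in ewe 48 and at 3119, 2490 and 3204 in ewes 185, 233 and 255. The livers of ewes 98 and 48 stood far below the other 6 in each treatment group. Control muscles held 54.1, 36.4, 44.5 and 58.2 in ewes 98, 131, 132 and 201, and prenatal T muscles 49.04, 50.2 and 35.6 in ewes 48, 185 and 233. Against these, the muscle of ewe 255 held 1681, from 691 reads, where the other muscles had 32 to 104 reads. That single muscle was above the livers of ewes 98 and 48, so the tissues overlapped for this gene. The group means were 2280 ± 1489 in control liver, 2221 ± 1468 in prenatal T liver, 48.3 ± 9.79 in control muscle and 454 ± 818 in prenatal T muscle (SD, n = 4 each). The SD of prenatal T muscle exceeded its mean because of ewe 255: its other 3 libraries lay within the range of control muscle or just under it.

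LOC101116687 is the one member of the 4 listed in the annotation used, where it is a transcribed pseudogene next to NEU1, which encodes a lysosomal sialidase. Its control livers were at 79.1 in ewe 98 and 436, 336 and 327 in ewes 131, 132 and 201. Its prenatal T livers were at 41.0 in ewe 48 and 331, 377 and 337 in ewes 185, 233 and 255. The same 2 livers as for LOC106990385 were low. Muscle levels were 18.3, 24.9, 17.5 and 7.27 in control ewes 98, 131, 132 and 201, and 10.8, 16.0, 12.2 and 119 in prenatal T ewes 48, 185, 233 and 255. The muscle of ewe 255 was again the highest muscle, above the livers of ewes 98 and 48. These muscle levels rest on few reads, 6 to 28 in the 7 lower-range muscles and 49 in that of ewe 255. Group means were 294 ± 152 and 271 ± 155 in control and prenatal T liver and 17.0 ± 7.27 and 39.6 ± 53.1 in control and prenatal T muscle (SD, n = 4 each).

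LOC105616344 showed the same arrangement of libraries. Its level in control liver was 33.98 in ewe 98 and 377, 327 and 335 in ewes 131, 132 and 201. In prenatal T liver it was 29.1 in ewe 48 and 342, 333 and 320 in ewes 185, 233 and 255. Livers of the higher number range were almost alike, and the other 2 were about as low as each other. Muscles were at 16.5, 17.8, 10.5 and 13.3 in control ewes 98, 131, 132 and 201, and at 16.0, 9.13, 20.02 and 124 in prenatal T ewes 48, 185, 233 and 255. Again the muscle of ewe 255 was above the livers of ewes 98 and 48. Group means were 268 ± 158 and 256 ± 152 in control and prenatal T liver and 14.5 ± 3.28 and 42.3 ± 54.7 in control and prenatal T muscle (SD, n = 4 each). For LOC106990385, LOC101116687 and LOC105616344 alike, the groups of a tissue overlapped.

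**Figure D1:**
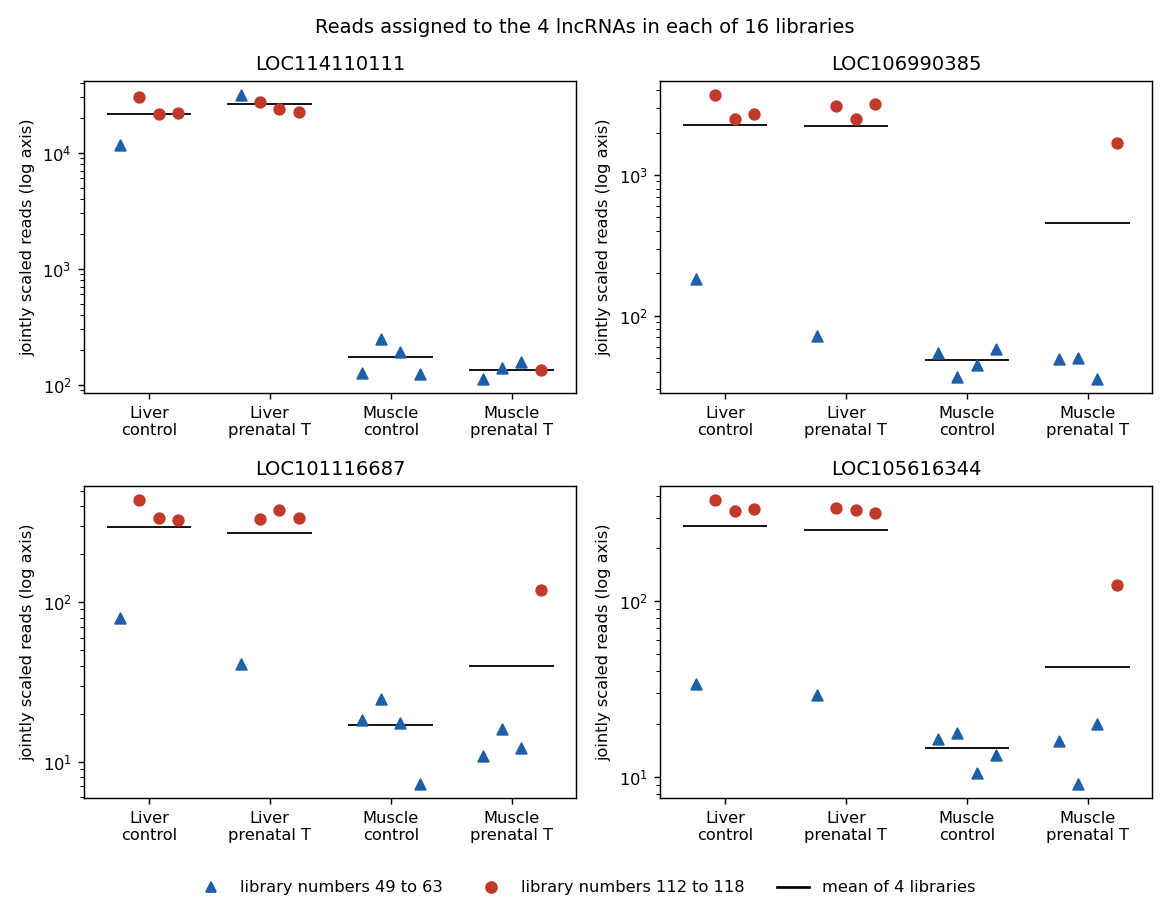
Jointly scaled reads of the 4 lncRNAs (log axis) in each of the 16 libraries by group, with triangles for the lower library number range, circles for the higher one and a line at the mean of 4 libraries. LOC114110111 separates by tissue, while the other 3 are low in the livers of ewes 98 and 48 and high in the muscle of ewe 255.

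On the joint scale all 4 members were higher in liver than in muscle in 8 of 8 ewes, and for all but LOC114110111 the size of the difference depended on the library numbers. Within each ewe, LOC114110111 was between 90.6 and 277 times as high in liver as in muscle. Its mean difference was 7.25 ± 0.50 on the scale log2(jointly scaled reads + 1) (SD, n = 8 ewes), the highest of all lncRNAs with a mean of at least 5 jointly scaled reads, whose median was 0.0093. It was 7.33 ± 0.81 in the 3 ewes with both libraries in the same range and 7.21 ± 0.33 in the 5 ewes with libraries in different ranges. Control ewes had 6.92 ± 0.39 and prenatal T ewes 7.59 ± 0.37 (SD, n = 4 each).

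LOC106990385 had a liver minus muscle difference of 4.15 ± 2.59 over the 8 ewes, rank 8 among those lncRNAs. In the 5 ewes with libraries in different ranges the difference was 5.99 ± 0.41, or 46.8 to 102 times. In ewes 98, 48 and 255 it was 1.07 ± 0.62, or 1.45 to 3.39 times, rank 32. The values of the 2 kinds of ewe did not overlap.

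For LOC101116687 the difference was 3.51 ± 1.48 over the 8 ewes, 4.54 ± 0.52 in the 5 ewes with libraries in different ranges and 1.79 ± 0.28 in the 3 with libraries in the same range. For LOC105616344 the corresponding differences were 3.25 ± 1.84, 4.56 ± 0.43 and 1.06 ± 0.28. As ratios these were 17.5 to 44.9 against 2.83 to 4.31 for LOC101116687, and 16.6 to 37.5 against 1.82 to 2.58 for LOC105616344. Liver was still the higher tissue of both genes in each of these 8 ewes on this scale.

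The direction in ewes with libraries in the same range depended on the scaling for LOC106990385 and LOC105616344. Scaling by miRNA factors moved the median liver minus muscle difference of all lncRNAs from 0.0093 to -0.94, and LOC106990385 was then higher in liver in 1 of these 3 ewes, with a mean of -0.073. LOC105616344 was then higher in 2 of 3, with a mean of -0.056, and LOC101116687 in 3 of 3, with a mean of 0.67. Relative to the median of all lncRNAs in the same 3 ewes under that scaling, -1.08, all 3 means lay above it. LOC114110111 and LOC101116687 were higher in liver in 8 of 8 ewes under each of the 5 scalings tried.

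**Figure D2:**
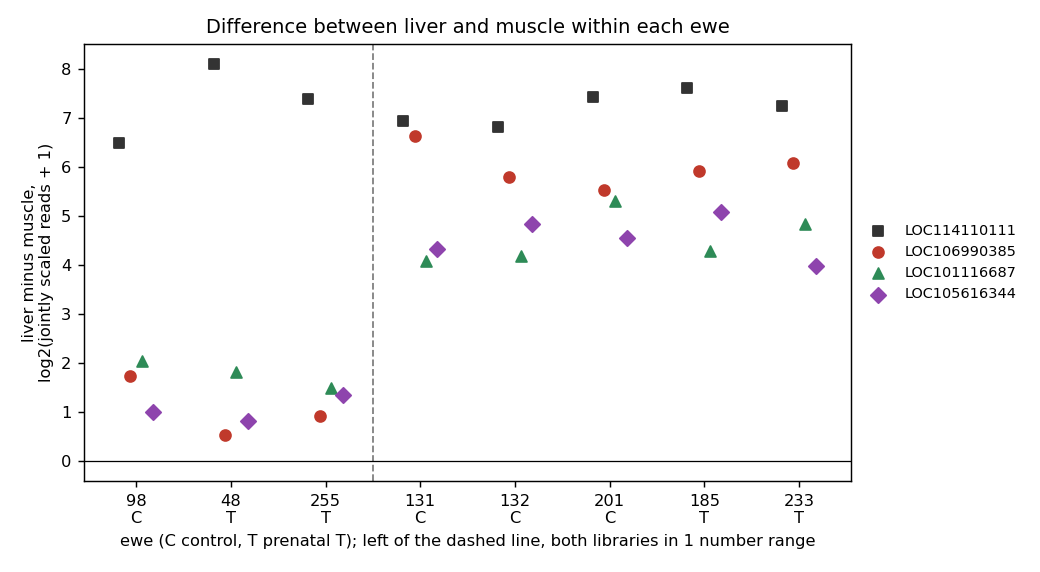
Liver minus muscle difference on the scale log2(jointly scaled reads + 1) for each of the 8 ewes, C for control and T for prenatal T, with ewes whose libraries are both in 1 number range left of the dashed line. LOC114110111 stays between 6.49 and 8.10 throughout, while the other 3 lie between 0.53 and 2.05 to the left of the line and between 3.99 and 6.63 to the right.

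The arrangement by library number was then described for all lncRNAs, a comparison chosen after the levels had been seen and given without a test. LOC106990385 had the highest mean difference between the higher and the lower number range among those lncRNAs, 4.67 in liver and 5.16 in muscle on the log2 scale. LOC105616344 had rank 2, with 3.39 and 3.03, and LOC101116687 rank 3, with 2.62 and 2.97. Their ranks were the same under the 5 scalings tried. The median of all lncRNAs was 0.00094 in liver and -0.39 in muscle, and the muscle value rests on the single library of ewe 255. LOC114110111 had no such order: its livers of the lower range, 11556 and 31269, lay on either side of those of the higher range, 21585 to 30447.

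Every library of the higher range was above every library of the lower range in both tissues for 9 of the lncRNAs (7.63%), and 3 of the 9 were LOC106990385, LOC105616344 and LOC101116687. The others were LOC114116957, LOC101104162, LOC114108991, LOC105616822, LOC114109082 and LOC105608013, named after their values were seen. For 6 of the lncRNAs every library of the higher range was the lower one. Among snoRNAs the higher range stood above in both tissues for 37 of 144 (25.7%) and below for 12, and among miRNAs for 6 of 76 and 3. Because 5 of 8 ewes have a liver in the higher range and a muscle in the lower, number range and tissue cannot be told apart in those ewes.

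**Figure D3:**
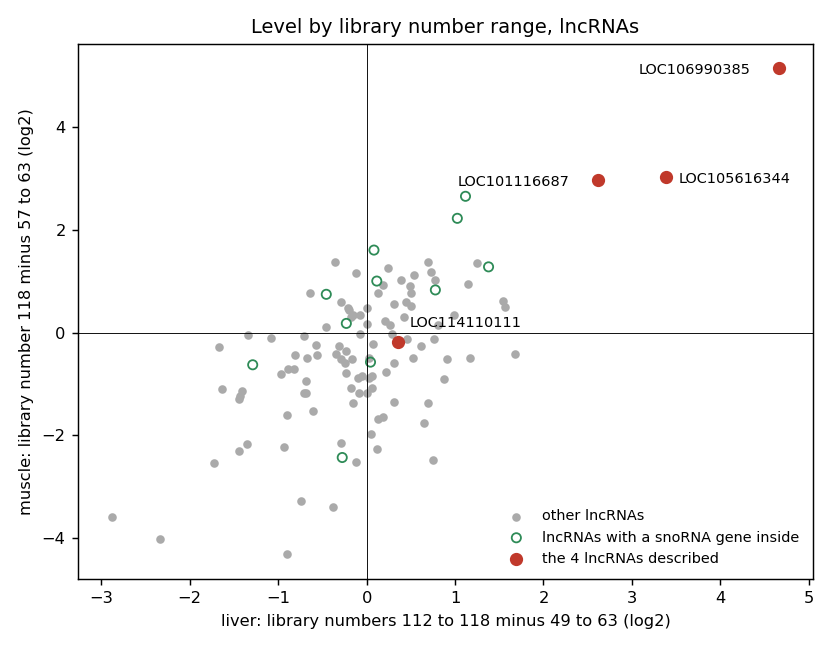
Difference in log2 level between libraries of the higher and the lower number range, in liver on the x axis (6 against 2 libraries) and in muscle on the y axis (1 against 7), with a point for each lncRNA. LOC106990385, LOC105616344 and LOC101116687 lie at the upper right, apart from the other lncRNAs, and LOC114110111 lies near 0 on both axes. Open circles mark the lncRNAs with an annotated snoRNA gene inside that are not members. LOC101116687 also holds such genes but is drawn as a filled red point with the other members.

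Ratios of reads within a library need no scaling factor, and those with LOC106990385 separated the number ranges within each tissue. LOC114110111 had 7.03 to 9.58 times the reads of LOC106990385 in the 6 higher-range livers, 63.1 times in the liver of ewe 98 and 439 times in that of ewe 48. In the muscle of ewe 255 the order turned, with 0.0796 times the reads, against 2.15 to 6.76 times in the other 7 muscles. LOC106990385 had 7.49 to 10 times the reads of LOC105616344 in the higher-range livers and 13.5 times in the muscle of ewe 255, against 2.45 to 5.39 in the other 2 livers and 1.78 to 5.50 in the other 7 muscles. LOC101116687 and LOC105616344 had nearly equal reads in the higher-range livers, with a ratio of 0.967 to 1.16, and 0.961 in the muscle of ewe 255. In the other libraries that ratio ran from 0.545 to 2.33.

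Among the 6 higher-range livers the members varied less than the median lncRNA. The coefficient of variation was 5.90% for LOC105616344, 11.9% for LOC101116687, 14.6% for LOC114110111 and 15.9% for LOC106990385, against a median of 31.6% over 99 lncRNAs. That median takes in any lncRNA with a mean of at least 5 jointly scaled reads, where counting error is larger. Members had means from 339 (LOC105616344) to 24604 (LOC114110111) in these livers, and no comparison at like levels was made. Over all 8 livers, deviations from the group means of LOC106990385, LOC101116687 and LOC105616344 had pairwise Pearson correlations of 0.987 to 0.995 (n = 8 livers). Those of LOC114110111 with these 3 were 0.304 to 0.408. For these 3, the far lower livers of ewes 98 and 48, 1 in each group, weigh most in the correlations. Among higher-range control livers ewe 131 was highest for all 3. Among higher-range prenatal T livers the order differed: ewe 233 was lowest for LOC106990385 (2490) and highest for LOC101116687 (377). All correlations here are descriptions over libraries that share their scaling factors, and those over 16 libraries also share the tissue difference.

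Reads of LOC101116687 ran parallel to those of the snoRNA genes inside it. The annotation places snoRNA genes LOC114109764 and LOC114109765 within LOC101116687. LOC114109765 was at 106 to 152 snoRNA-scaled reads in the 6 higher-range livers, 14.6 and 20.2 in the livers of ewes 98 and 48, 59.1 in the muscle of ewe 255 and 4.65 to 15.4 in the other muscles. It was low and high in the same libraries as its host. LOC114109764 had 5 to 31 reads per liver and 0 to 3 per muscle. LOC101116687 had 1.54 to 2.89 times the summed reads of both, with a median of 1.82 over the 16 libraries. The highest ratio was in the liver of ewe 98, and the 6 higher-range livers ran from 1.74 to 1.96. Whether the same reads were counted for the host and for the snoRNAs was not tested.

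**Figure D4:**
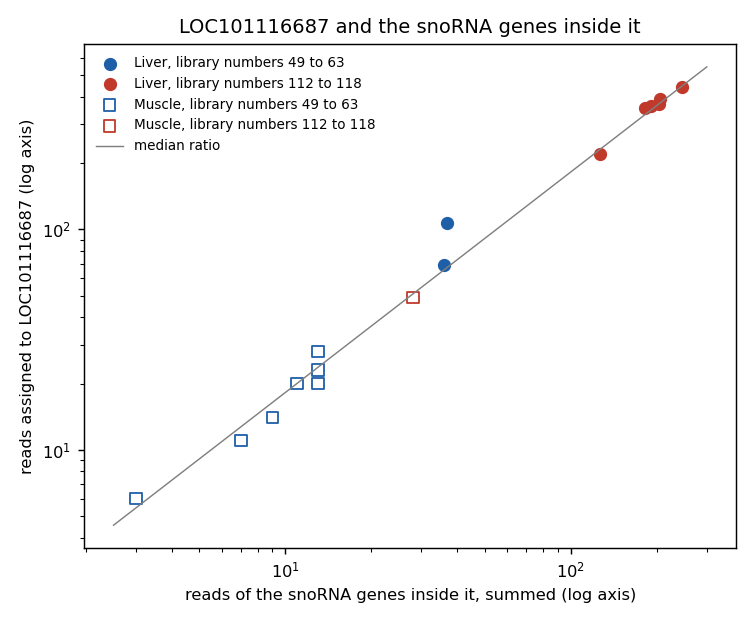
Reads assigned to LOC101116687 against the summed reads of the snoRNA genes LOC114109764 and LOC114109765 inside it, in each of the 16 libraries (log axes), with a line at the median ratio of 1.82. The libraries follow the line from 6 reads of the host in a muscle to 443 in a liver, and the liver of ewe 98 lies farthest above it.

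The lncRNAs that hold a snoRNA gene, LOC101116687 among them, were set beside those that hold none. Of the lncRNAs ranked above, 55 are in the annotation with their bounds, and 12 of these hold a snoRNA gene. The mean log2 difference between number ranges had a median of 0.68 in the 12 (from -1.36 to 2.79) and of -0.29 in the other 43, whose highest was 1.08. LOC101116687 was the highest of the 12, and LOC105611302 came next at 1.89. The muscle part of each mean rests on the library of ewe 255. LOC106990385 and LOC105616344 are not listed there, so whether they hold a snoRNA gene is not known here. The share of snoRNAs in the reads of the 4 classes was 0.830% to 2.89% in liver, lowest in ewe 48 and highest in ewe 98, and 0.234% to 1.42% in muscle, highest in ewe 255. The livers of ewes 98 and 48, both low in LOC106990385, LOC101116687 and LOC105616344, thus stood at opposite ends of that share, and its part in the members' levels was not tested.

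The features most like each member were named by Pearson correlation of log2 level over the 16 libraries, each RNA class being scaled by its own factors. For LOC114110111 they were the lncRNAs LOC114110055 (r = 0.996), LOC105603426 (0.974) and LOC114114530 (0.969). LOC114110055 was at 132 to 152 in higher-range livers, 62.8 and 107 in the lower-range livers and at most 0.873 in muscle. The miRNAs most like LOC114110111 were MIR194 (0.997), which is abundant in liver, MIR200B (0.994), known from epithelia, and MIR148A (0.993), another abundant liver miRNA. The median level of muscle as a percentage of the median of liver was 0.589% for LOC114110111, 1.44% for MIR194, 0.435% for MIR200B and 6.91% for MIR148A. LOC114110111 thus lay between MIR200B and MIR194 in how little of it was found in muscle.

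Among lncRNAs, the members other than LOC114110111 were each most like one another, with r from 0.963 to 0.981 over the 16 libraries. LOC114108991 was the next for each of them, with r from 0.950 to 0.970, and was at 25.8 to 42.5 in the higher-range livers and 13.3 to 13.7 in the other 2. The most similar miRNA of each was MIR543 (r = 0.892 for LOC106990385, 0.936 for LOC101116687 and 0.906 for LOC105616344). MIR543 belongs to the imprinted DLK1-DIO3 cluster in mammals, as do MIR382 and MIR493, next for LOC106990385, and MIR411A and MIR487B, next for LOC105616344. MIR200A and MIR194 came next for LOC101116687. MIR543 in the muscle of ewe 255 was at 84.6, against 15.3 to 31.5 in the other muscles.

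The closest of 144 snoRNAs matched each of these members more closely than the closest of 76 miRNAs did, and the larger pool favours a higher maximum. The snoRNA most like LOC106990385 was LOC114110194 (r = 0.984), which lies inside lncRNA gene LOC114110053 between WDR74 and SLC3A2. LOC114110194 was at 186 to 245 in the higher-range livers, 5.86 and 16.0 in the lower-range livers, 177 in the muscle of ewe 255 and 4.801 to 14.8 in the other muscles. It shared the low livers and the high muscle of LOC106990385. Next for LOC106990385 came LOC114117650, inside NOP56, which encodes a core protein of snoRNA particles, and LOC114117651 with identical values (0.980 each). For LOC105616344 the first were LOC114111381 (0.981), inside the translation factor gene EIF4A2, LOC114117064 (0.980), inside the cation channel gene TRPV2, and LOC114117650 (0.976). For LOC101116687 the first of 144 snoRNAs was LOC114109765 (0.969), the snoRNA gene inside it, followed by LOC114111381 and LOC114117363.

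Variation among the livers alone gave other neighbours for LOC114110111. Its deviations from the group means over 8 livers were most like those of LOC101112542 (r = 0.936), LOC105602212 (0.896), which holds MIR125B, and LOC101112520 (0.834), and of the miRNAs MIR26B (0.917), MIR30C (0.909) and MIR30D (0.894). The other 3 members were again most like one another among lncRNAs (0.987 to 0.995). Among miRNAs each of these 3 was most like MIR191 (0.897 to 0.938), then MIR16B and MIRLET7C. MIR191 was at 4478 to 5791 in the higher-range livers and 3079 and 3173 in the other 2.

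Marker features were set beside the tissue labels. Of the listed liver-enriched miRNAs 3 of 6 were in the data (MIR148A, MIR152 and MIR194), and of muscle-enriched features 3 of 12 (MIR133, LOC105604459 and LOC105603743). LOC105604459 and LOC105603743 are lncRNA rows of these same data, listed with earlier results known. Their high level in muscle is therefore no independent check, and MIR133 is the only muscle-enriched miRNA here. The summed level of the liver list was 24256 to 38718 in livers and 1499 to 2617 in muscles. The muscle of ewe 255, where 3 of the members were high, held 88.5 of MIR194 and 1273 of MIR148A, within the 61.5 to 124 and 1129 to 2144 of the other muscles, and its LOC114110111 was likewise among theirs. Its MIR152 was 165, below the 293 to 362 of the other muscles. Among the muscle-enriched features it was low in MIR133, at 162262 against 291751 to 366236, and in LOC105604459, at 112647 against 222356 to 289918. Its LOC105603743, at 152375, lay within the 118068 to 214708 of the other muscles. The part of these values in its levels of the members was not tested. In the liver of ewe 98, where LOC114110111 was lowest, MIR133 was 471 against 78.0 to 166 in the other livers. LOC105604459 was 559 there against 179 to 371, and LOC105603743 was 218 against 14.2 to 163. All 3 muscle-enriched features were thus highest in that liver, and their part in the level of LOC114110111 was not tested.

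Prenatal T changed none of the 4 members detectably in liver. LOC114110111 was at 27937 ± 4057 normalised reads, as deposited, in prenatal T liver and 23080 ± 7063 in control liver (SD, n = 4 each). The log2 difference of prenatal T minus control on log2(value + 1) was 0.32 with a standard error (SE) of 0.24 (limma adjusted p = 0.890). The members LOC106990385, LOC101116687 and LOC105616344 had log2 differences of -0.39 (SE 1.28), -0.33 (SE 0.73) and -0.15 (SE 0.92), with limma adjusted p of 0.890, 0.890 and 0.903. In all, 0 of 4 members passed an adjusted p of 0.05, where the background over all 121 lncRNAs tested was 0%. The median log2 difference was -0.24 over the members and -0.081 over all lncRNAs tested. With limma, 0 of the 121 had an unadjusted p under 0.05, with edgeR 2 and with DESeq2 2.

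The large standard errors of LOC106990385, LOC101116687 and LOC105616344 in liver came with the livers of ewes 98 and 48, 1 in each group. Without the liver of ewe 98 their differences were -1.34, -0.82 and -0.92, and without that of ewe 48 they were 0.94, 0.43 and 0.72, with the sign turned. In the 6 higher-range livers, 3 per group, LOC106990385 was at 3146 ± 606 deposited normalised reads in control and 3125 ± 421 in prenatal T liver (SD). Its log2 difference was -0.0017 (SE 0.17, limma adjusted p = 0.999). LOC101116687 had 387 ± 57.7 and 370 ± 27.8, a difference of -0.056 (SE 0.16, limma adjusted p = 0.939). LOC105616344 had 366 ± 22.0 and 353 ± 6.92, a difference of -0.053 (SE 0.14, limma adjusted p = 0.939). LOC114110111 had 25992 ± 4894 and 26149 ± 2345, a difference of 0.021 (SE 0.15, limma adjusted p = 0.963). All 4 differences were below 0.1 in size there, and 0 lncRNAs were called in this fit (0%), with 5 at an unadjusted p under 0.05 by limma.

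In muscle the differences of LOC106990385, LOC101116687 and LOC105616344 turned on ewe 255, and that of LOC114110111 did not. LOC106990385 was at 453 ± 824 deposited normalised reads in exposed muscle and 46.7 ± 8.67 in that of controls (SD, n = 4 each), with a log2 difference of 1.16 (SE 1.05, limma adjusted p = 0.812). Without ewe 255 prenatal T muscle was at 41.4 ± 7.30 (SD, n = 3), and the difference was -0.17 (SE 0.24, limma adjusted p = 0.965). The direction of LOC106990385 in muscle thus rested on a single library. On recovered reads edgeR gave this gene a log2 difference of 3.42 (edgeR adjusted p = 0.237), while DESeq2 gave no p for it.

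LOC101116687 and LOC105616344 behaved alike in muscle. LOC101116687 had 38.9 ± 53.9 in exposed and 16.5 ± 7.26 in control muscle (SD, n = 4 each), a log2 difference of 0.48 (SE 0.72, limma adjusted p = 0.966), which became -0.33 (SE 0.37, adjusted p = 0.965) without ewe 255. LOC105616344 had 41.6 ± 55.5 and 14.1 ± 3.22, a log2 difference of 0.73 (SE 0.68, limma adjusted p = 0.827), which became -0.058 (SE 0.32, adjusted p = 0.980). LOC114110111 was 127 ± 16.2 in exposed and 168 ± 59.6 in control muscle, a difference of -0.34 (SE 0.28, limma adjusted p = 0.810) with ewe 255 and -0.37 (SE 0.27, adjusted p = 0.875) without. In muscle 0 of 4 members passed, against a background of 4 lncRNAs called by limma (3.51%) and by edgeR (3.51%) and 5 by DESeq2 (4.39%). Without ewe 255 limma called 4 (3.31%), and 0 of them were members. The median log2 difference was 0.60 over the members with all 8 muscles and -0.069 over all lncRNAs tested.

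**Figure D5:**
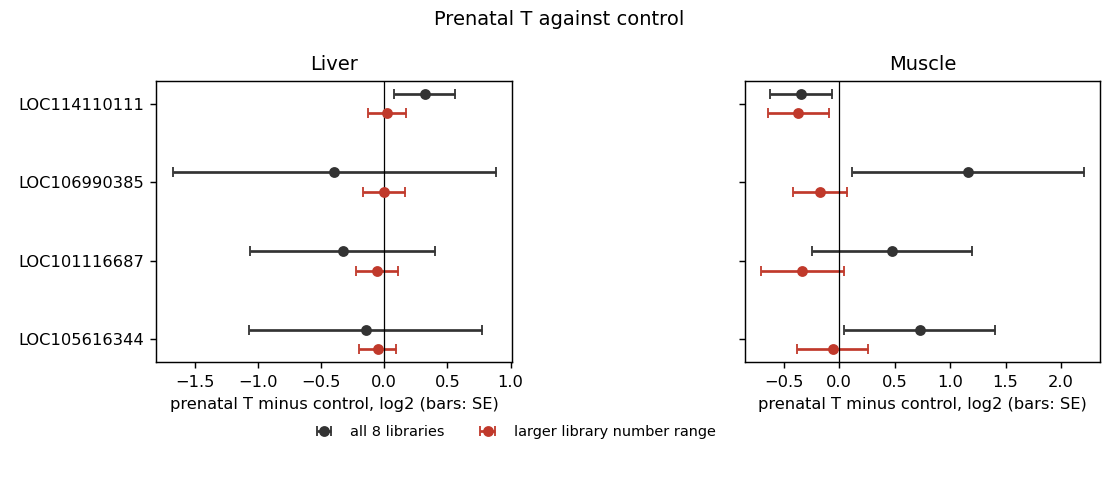
Prenatal T minus control log2 differences of the 4 lncRNAs with their SE from limma, in liver (left) and muscle (right), for all 8 libraries of the tissue (dark) and for the larger number range alone (red, 6 livers or 7 muscles). Intervals of LOC106990385, LOC101116687 and LOC105616344 shrink in the larger range, and their muscle differences move from above 0 to below it.

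Whether the effect of prenatal T differed between the tissues was tested for each member. LOC114110111 had a liver effect minus muscle effect of 0.66 on the log2 scale (SE 0.37, limma adjusted p = 0.905). A two-sided exact permutation test of the liver minus muscle difference over the 70 assignments of ewes gave p = 0.0857, where the smallest p possible is 0.0286. LOC106990385, LOC101116687 and LOC105616344 had -1.56 (SE 1.83), -0.80 (SE 1.12) and -0.87 (SE 1.25), each with a limma adjusted p of 0.905, and exact permutation p of 0.343, 0.457 and 0.571. With higher-range livers and lower-range muscles alone these became 0.17, 0.28 and 0.0056, and that of LOC114110111 became 0.39, where 2 lncRNAs were called (1.69%) and 0 of them were members. In this test 0 of 4 members passed, and the background was 0 lncRNAs (0%), with 5 at an unadjusted p under 0.05 by limma, 14 by edgeR and 9 by DESeq2, which called 1 lncRNA (0.855%).

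Marker lists moved with prenatal T in no case past the threshold. In liver the 3 muscle-enriched features had a median log2 difference of -0.84 and 0 of 3 passed, while of the 3 liver-enriched miRNAs 1 was higher, 2 were lower and 0 passed. In muscle the 3 liver-enriched miRNAs were all lower, with a median of -0.26, and 0 of 3 passed. The blood cell list (2 of 7 miRNAs in the data), the stroma and vessel list (3 of 6) and the epithelium list (3 of 5) had medians of -0.17, 0.16 and -0.21 in liver, and 0 of their members passed in liver. In muscle the blood cell, stroma and vessel, and muscle-enriched lists had medians of -0.11, -0.42 and -0.17 with 0 passed, and 0 of the epithelium miRNAs were high enough to test. The snoRNA genes LOC114109764 and LOC114109765 inside LOC101116687 had liver differences of 0.18 (SE 0.60) and 0.15 (SE 0.84), each with a limma adjusted p of 0.982.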

How the data were processed

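Libraries were made from Trizol-extracted total RNA with a NEBNext small RNA kit, per the labels' protocols. Tools named in the submitters' processing notes are cutadapt 3.2, STAR 2.6.0c and featureCounts 1.6.1. Their settings are not stated there, and the build is not given in the sources used here. What the authors deposited is a signal: reads of each class divided by a size factor for the library, set within a tissue. Of 10585 lncRNA values above 0, 100% were whole reads within 0.001 reads after recovery.

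Control and prenatal T were compared with limma 3.58.1 (R 4.3.3, variance trend) on log2(value + 1), for lncRNAs with a mean of at least 5, with Benjamini-Hochberg adjustment over all lncRNAs tested and a threshold of 0.05. An interaction fit over 16 libraries tested the difference between tissues. Alternatives were a pseudocount of 5, no filter, another scaling, no trend, edgeR 4.0.16 and DESeq2 1.42.0 on recovered reads, leaving out a library and the ewe as a block. The fits were tested on simulated data. The numbers pair the samples, since liver and muscle came from the same ewes; the correlations of their deviations from group means were between -0.193 and 0.500, with 4 of 8 above 0.1. Beyond the library number ranges the labels show no batch, and replicates of a group differed beyond counting noise (chi-square per degree of freedom 6.11 to 224).

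Levels of the tissues were compared on recovered reads with joint factors of 0.411 to 2.12. Named features were the members, the 3 lncRNAs and the 3 miRNAs of highest correlation with each over 16 libraries and over liver deviations, neighbours and small RNA genes inside a member, and marker lists; the 3 nearest snoRNAs and the comparison of number ranges were added after the levels had been seen. The members and lists were chosen with earlier results of these data known. Names and neighbours came from a RefSeq gene table, which listed 1 of 4 members, 1372 of 2973 lncRNAs, 105 of 105 miRNAs and 621 of 694 snoRNAs; its build may differ from the authors', so no coordinates or sequences are given.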

Additional observations from a re-analysis of the deposited data

Results flagged for a closer look

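In 6 of 16 member and group combinations 1 library lay apart from the other 3 of its group by more than Dixon's 95% critical value of 0.829, which chance alone gives in about 1 of 20 groups; the members share these libraries and are not independent. In prenatal T muscle the library of ewe 255 was highest for LOC106990385, with 1689 deposited normalised reads against 46.2 in the next, for LOC101116687, with 120 against 14.3, and for LOC105616344, with 125 against 18.5. In prenatal T liver the library of ewe 48 was lowest for LOC101116687, with 43.7 against 347 in the next, and for LOC105616344, with 31.0 against 345. In control liver that of ewe 98 was lowest for LOC105616344, with 42.2 against 353. Each of these libraries is the 1 library of its group in a different number range from the other 3. LOC114110111 had no library of this kind in any group.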

How the results depend on the processing

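Liver directions of LOC106990385 and LOC105616344 turned with edgeR, to 0.063 and 0.031 on the log2 scale. In muscle the larger number range alone turned LOC106990385, LOC101116687 and LOC105616344 to -0.17, -0.33 and -0.058, and in the interaction the higher-range livers with lower-range muscles turned them to 0.17, 0.28 and 0.0056. The cause was not tested. Leaving out 1 library at a time moved the liver effects to between -1.34 and 0.94 (LOC106990385), -0.82 and 0.43 (LOC101116687) and -0.92 and 0.72 (LOC105616344), turning the sign without the liver of ewe 48 for these 3, without that of ewe 131 for LOC106990385 and without that of any of ewes 131, 132 and 201 for LOC105616344. It moved the muscle effects to between -0.17 and 1.71, -0.33 and 0.81, and -0.058 and 1.20, and the interaction of LOC101116687 to between -1.29 and 0.0037, the turned signs being those without ewe 255. LOC114110111 kept its direction in each. The muscle count of called lncRNAs, 4, was 1 with no variance trend and 1 to 4 with a library left out, with 1 without the muscle of ewe 132, 48 or 233 and 2 without that of ewe 131 or 201. The interaction count, 0, was 2 with no filter, 1 with DESeq2, 2 with higher-range livers and lower-range muscles, and 0 to 3 with a library left out, 3 being without the liver of ewe 98. With the ewe as a replicate block it was 0, the interaction of LOC114110111 was 0.66 (limma adjusted p = 0.692), and no call changed. The mean liver minus muscle difference of LOC114110111 was 8.29 with RPM over the 4 classes, 10.01 with RPM over lncRNAs and 6.24 with miRNA factors. That of LOC106990385, LOC101116687 and LOC105616344 was 6.91, 6.30 and 6.03 with RPM over lncRNAs. In ewes with libraries in the same range it was 3.76, 4.50 and 3.76 with that RPM, and 1.07, 1.79 and 1.06 with the joint factors. RPM over the 4 classes, RPM over lncRNAs and miRNA factors moved the median of all lncRNAs to 0.95, 2.68 and -0.94. Few reads limit the muscle levels of LOC101116687 and LOC105616344, and 4 libraries a group with 1 apart limit every prenatal T comparison of these members.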
